A study of Mus musculus with 24 samples.

Results

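Keratins are the intermediate filament proteins of epithelial cells, and their transcripts were followed here in 4 tissues (brain, liver, heart, skeletal muscle) of mice with a point mutation in Rap1. The members are all genes on the array whose symbol is Krt followed by a number and at most 1 letter. They came to 53 of 21370 genes with a symbol, 28 of type I (acidic) and 25 of type II (basic), measured by 64 probes. For the 11 genes with several probes, the one brightest on average over the 24 arrays was taken.

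There were 24 arrays, 1 for each of 4 tissues of 6 female mice. Mice A, B and C were homozygous for the Rap1 I312R knockin allele (Rap1 KI/KI, "RAP1 MUT" in the labels; the gene symbol of Rap1 is Terf2ip), and mice D, E and F were wild type (WT) littermates. The knockin was made with CRISPR/Cas9 and is carried in every cell, and the line had been backcrossed 4 times to C57BL/6N mice (C57BL6 in the labels). Mice C and F were 14 months old and the others 15 months old. A group was thus 3 arrays of 1 tissue and 1 genotype, and each array was 1 mouse.

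A keratin filament is built from pairs of 1 type I and 1 type II chain, so a cell that makes filaments needs a member of each type. Simple epithelia such as hepatocytes and bile ducts use Krt8 and Krt18, with Krt7 and Krt19 in ducts and mesothelium. The basal layer of stratified epithelia uses Krt5, Krt14 and Krt15, the layers above it Krt1, Krt2, Krt9 and Krt10, and the hair shaft and its inner root sheath have large sets of their own. Neurons, cardiac myocytes and skeletal myofibres carry mainly other intermediate filament proteins. In bulk tissue, fewer cells of a type and less RNA per cell cannot be told apart.

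A level is the log2 processed signal less the array's own 75th percentile, so 0 is the signal that 75% of the spots did not exceed. A probe is called well above background on an array where the scanner program marked it so. Levels of different probes are not comparable with each other, so each keratin is compared only with itself across arrays. That percentile ranged from 312.4 to 2510.4 signal units, and the share of probes well above background from 49.4% to 68.4%. The hepatocyte marker Alb lay between 9.03 and 10.21 in liver, the cardiac myosin Myh6 between 8.71 and 9.03 in heart, the skeletal actin Acta1 between 9.51 and 10.35 in muscle and the neuronal nuclear protein Rbfox3 between 5.16 and 5.70 in brain. Terf2ip was well above background on all 24 arrays and differed between genotypes by -0.33 ± 0.21 (SE) in liver and by less in the other tissues, with adjusted p from 0.518 to 1.00 in limma. A probe for the whole transcript does not check a point mutation. Nothing but the animal number says how samples of a group relate, and the 3 mice of a group are separate animals.

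Some arrays lay above the others of their tissue in markers of another tissue. The marker lists were chosen with earlier results of these data known, and where these transcripts came from was not tested. For the brain and muscle arrays named next, values between genotypes that rest on them are given with and without them. The brain of KI mouse C lay more than 2 (log2) above the other 5 brains in 3.56% of the 18068 genes detected in brain, including 7 of 8 hepatocyte markers and 5 of 7 olfactory mucosa markers. The muscle of KI mouse B did so in 1.37% of 15967 genes, including 5 of 12 mammary epithelium, 3 of 8 cholangiocyte and 3 of 11 epidermis markers. On the 22 other arrays the share was between 0.072% and 1.00%. In the liver of KI mouse C, 8 of 8 skeletal muscle markers lay more than 2 above the other livers, and Krt74 was the 1 keratin that did. Values between genotypes in liver are given with that array. Without it, 0 of 24 keratins had a limma adjusted p under 0.05 between genotypes, as did 0 of all 14570 genes.

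Of the 53 keratins, 42 were well above background on at least 1 array, 26 on all 6 arrays of at least 1 tissue and 11 on all 24 arrays. The 11 detected throughout were Krt2, Krt5, Krt9, Krt10, Krt16, Krt18, Krt31, Krt73, Krt79, Krt80 and Krt222. All 6 arrays of a tissue detected 21 keratins in brain, 17 in liver, 15 in heart and 13 in muscle. The 11 detected nowhere were Krt26, Krt32, Krt33a, Krt33b, Krt34, Krt35, Krt39, Krt40, Krt76, Krt84 and Krt87, of which 9 are hair shaft keratins.

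**Figure D1:**
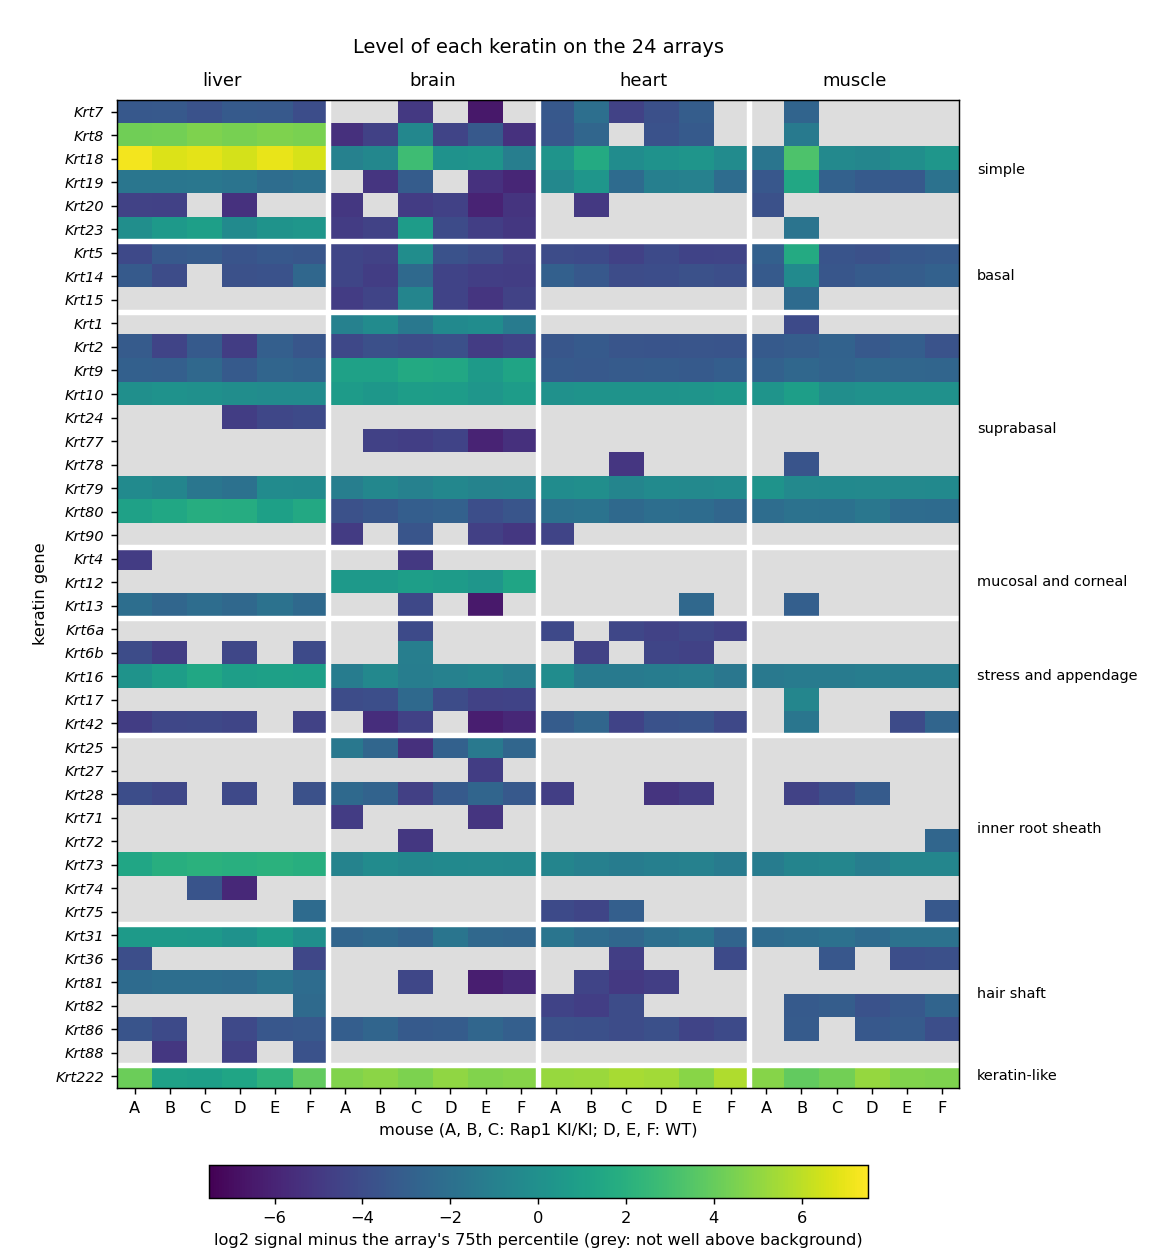
Level (log2 signal minus the 75th percentile of the array) of the 42 keratins well above background on at least 1 of 24 arrays, with genes in rows by class and mice in columns by tissue. Grey cells were not well above background, Krt8 and Krt18 are brightest in the 6 livers, Krt12 is coloured in brain alone, and the columns of brain C and muscle B hold colour where their neighbours are grey.

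By class, the simple keratins were all detected somewhere: 5 of 6 on every liver, 3 on every brain and 2 each on every heart and muscle. Among the 3 basal keratins, all were on every brain, 2 on every heart and muscle, and 1, Krt5, on every liver. The suprabasal class had 5 of 10 on all 24 arrays. Hair shaft keratins were the least detected, with 9 of 15 on no array and 2 (Krt31 and Krt81) on every liver. Of 9 inner root sheath keratins, 3 (Krt25, Krt28 and Krt73) were on every brain and 1, Krt73, on every array.

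Of 18 members tested in all 3 pairs, 9 were higher in liver than in each of the other 3 tissues: Krt8, Krt18, Krt23, Krt13, Krt16, Krt31, Krt73, Krt80 and Krt81. Over all 14195 genes tested in the same 3 pairs the share was 27.4%. Krt8, Krt13, Krt23 and Krt81 were tested against heart and muscle through their detection in liver alone, so the count is no result about the members. These tests came from 1 limma fit of all 24 arrays, with adjustment over all genes tested in a pair.

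Krt8 and Krt18 are the type II and type I chains of hepatocyte filaments. In liver Krt8 ran from 4.27 to 4.60 with a median of 4.45, and it was well above background on all 6 arrays. In brain it ran from -5.44 to -0.56 with a median of -4.51, in heart from -5.33 to -2.53 with a median of -3.58 (4 arrays above background), and in muscle from -6.22 to -1.38 with a median of -4.79 (1 array). Every liver thus lay above every other array. Liver exceeded brain by 8.39 ± 0.82 (SE, 6 arrays each, adjusted p = 1.24e-08), heart by 8.37 ± 0.82 (adjusted p = 1.55e-08) and muscle by 8.98 ± 0.82 (adjusted p = 4.53e-09), all in log2 units. Krt8 entered the heart and muscle pairs through liver alone, and the p-values of those pairs do not stand apart from that choice.

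Krt18 was well above background on all 24 arrays. Liver ran from 6.56 to 7.26 (median 6.78), brain from -1.08 to 2.82 (median -0.21), heart from -0.25 to 1.64 (median 0.19) and muscle from -1.67 to 3.34 (median -0.26). The liver excess was 6.71 ± 0.69 over brain (adjusted p = 2.63e-08), 6.51 ± 0.69 over heart and 6.67 ± 0.69 over muscle. Brain, heart and muscle could not be put in order for either gene, since the 5 differences tested among them were between -0.20 and 0.59 with SEs of 0.68 to 0.82 and adjusted p of at least 0.510. With the brain of mouse C and the muscle of mouse B left out, heart exceeded brain by 0.79 and muscle by 0.89 in Krt18, and both passed the threshold (limma, adjusted p = 0.0379 and 0.0235). Those arrays were the highest of their tissues in Krt18 and were chosen after seeing the data, while the highest heart (mouse B, 1.64) was kept. The p-values therefore set no order among these tissues.

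**Figure D2:**
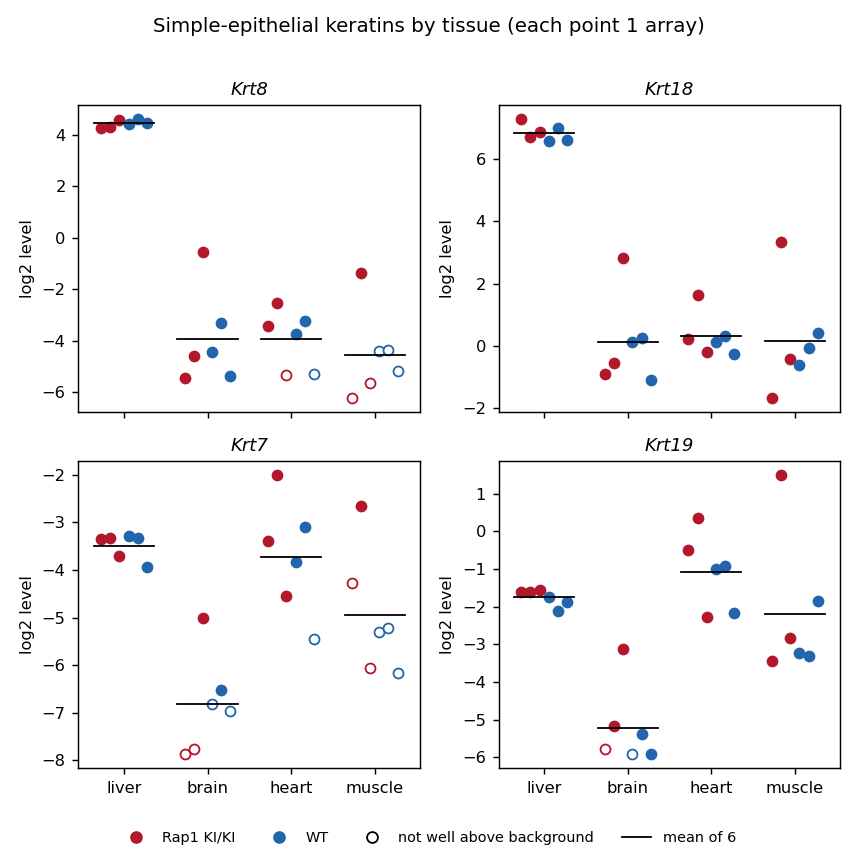
Level (log2 signal minus the 75th percentile) of Krt8, Krt18, Krt7 and Krt19 on each array by tissue, red for Rap1 KI/KI, blue for WT, open where not well above background, with a line at the mean of 6. The livers of Krt8 (4.27 to 4.60) and Krt18 (6.56 to 7.26) form tight groups, while 1 KI brain and 1 KI muscle lie far above the rest of their tissues.

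Krt8 and Krt18 are neighbours in the genome, Krt18 being the type I gene that sits among the type II genes. Their start sites lie 23874 bases apart on opposite strands of chromosome 15. The 250 bases before each start, from RefSeq's GRCm38.p6, are shown because these 2 genes make the chain pair of hepatocyte filaments. Searched on both strands for the TATA box letters TATAAA, the CAAT box letters CCAAT and the GC box letters GGGCGG, with matches in capitals, neither window held one of the 3.
Krt8, chr15:102004343-102004592, minus strand: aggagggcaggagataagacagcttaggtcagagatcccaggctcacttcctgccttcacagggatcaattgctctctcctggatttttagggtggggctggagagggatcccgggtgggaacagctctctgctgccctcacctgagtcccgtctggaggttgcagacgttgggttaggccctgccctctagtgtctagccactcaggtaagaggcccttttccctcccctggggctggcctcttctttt
Krt18, chr15:102027966-102028215, plus strand: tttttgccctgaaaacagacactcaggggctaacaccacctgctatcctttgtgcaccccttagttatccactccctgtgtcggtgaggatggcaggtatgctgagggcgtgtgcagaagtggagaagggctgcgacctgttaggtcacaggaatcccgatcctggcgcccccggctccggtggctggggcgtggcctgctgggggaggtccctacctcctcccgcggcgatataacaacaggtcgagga
An absent match says only that these letters are not in the window. TATAAA was found in 17 of the 37 keratin windows in the table (45.9%), against 12.4% of all 32851 windows. CCAAT was in 15 keratin windows (40.5%, against 33.8% of all). GGGCGG was in 2 (5.41%, against 32.7% of all).

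Krt23, a type I keratin of simple epithelia, was on all 6 livers (-0.32 to 0.94, median 0.30) and on no heart. Liver was at least 49.1-fold above heart, a bound for which every heart value was lifted to the dimmest detected level of that array. In brain it ran from -5.06 to 0.77 with a median of -4.62, the highest value being mouse C, so liver and brain overlapped although their means differed by 4.03 ± 0.83 (adjusted p = 0.000177). In muscle, mouse B alone was above background (-1.76).

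Krt80, Krt31, Krt73 and Krt16 of the liver group were well above background on all 24 arrays. Krt80, a type II keratin, ran from 1.04 to 1.84 in liver. Its muscles ran from -2.24 to -1.53, its hearts from -2.55 to -1.81 and its brains from -3.92 to -2.83. It was lower in brain than in heart by 1.28 ± 0.21 and than in muscle by 1.45 ± 0.21 (adjusted p = 1.27e-05 and 2.28e-06), and heart and muscle did not separate (adjusted p = 0.464). Krt31, a hair shaft keratin, ran from -0.02 to 0.82 in liver against at most -1.66 on any other array. Krt73, an inner root sheath keratin, ran from 1.40 to 2.08 against at most -0.24. Krt16, a keratin of injured and appendage epithelium, ran from 0.22 to 1.44 against at most -0.23. The livers thus lay above all 18 other arrays in each of these, by mean differences of 1.82 to 4.89 (log2).

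The last 2 of the liver group were dim elsewhere. Krt81, a hair shaft keratin, ran from -2.27 to -1.70 in liver, was on 3 brains and 3 hearts and on no muscle, and was at least 4.73-fold higher in liver than in muscle. Krt13, a mucosal keratin, ran from -2.53 to -1.85 in liver and was on 2 brains, 1 heart and 1 muscle. The single heart was WT mouse E at -2.43, inside the liver range, and the other 5 hearts were at -5.40 or below. The second probe of Krt13 was above background on 1 liver and 1 brain only.

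Krt7 and Krt19, markers of ducts and mesothelium, did not share the liver pattern. Krt19 ran from -2.27 to 0.36 in heart, -2.12 to -1.57 in liver, -3.45 to 1.48 in muscle and -5.91 to -3.12 in brain. Brain was lowest, by 3.45 ± 0.67 against liver, 4.12 ± 0.67 against heart and 3.00 ± 0.67 against muscle (adjusted p = 9.66e-05, 1.41e-05 and 0.000389), and liver did not separate from heart (adjusted p = 0.361) or muscle (adjusted p = 0.536). Krt7 ran from -3.93 to -3.28 in liver and from -5.46 to -2.02 in heart (5 arrays), with 2 brains and 1 muscle above background. Krt7 was higher in liver than in brain by 3.33 ± 0.58 (adjusted p = 2.83e-05) and than in muscle by 1.45 ± 0.58 (adjusted p = 0.0260), the second of which was lost without any 1 of mice A, D, E and F. Krt7 entered both pairs, and Krt19 its pairs with brain, through the higher tissue alone.

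Within heart, the simple keratins spread widely between mice of both genotypes. Krt19 was at -0.49, 0.36 and -2.27 in KI mice A, B and C and at -1.004, -0.91 and -2.18 in WT mice D, E and F. Krt8 was at -3.44, -2.53 and -5.33 in A, B and C and at -3.72, -3.24 and -5.30 in D, E and F, the values of C and F being below background. Krt7 was at -3.39, -2.02 and -4.56 against -3.83, -3.09 and -5.46. Mouse B was highest and mice C and F were lowest in Krt7, Krt8 and Krt19. The mesothelial marker Upk3b moved alongside, at -0.45, 0.74 and -2.34 in A, B and C and -0.75, -0.37 and -1.77 in D, E and F. All 7 mesothelium markers on the array were highest in the heart of mouse B, which was highest in 22.5% of all 17220 genes detected in heart, and the summed level of the list was 17.3 there against 4.82 and 7.17 in C and F and 9.27 to 11.8 in the others. Hearts C and F also lay on another slide than the other 4 hearts and came from the 2 younger mice, and the part of these in the result was not tested.

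Some keratins were highest in brain. Of 22 members tested in all 3 pairs, 8 were higher in brain than in each other tissue: Krt1, Krt9, Krt10, Krt12, Krt15, Krt25, Krt28 and Krt86. Over all 15699 genes so tested the share was 23.6%. Krt1, Krt12, Krt15, Krt25 and Krt28 were on all 6 arrays of brain and of no other tissue. They were thus tested through the tissue where they were high, and the count is no result about the members. Some of the brain calls were lost under an alternative. Krt15 against muscle was lost in the deposited table and in fits without any 1 of mice C, D, E and F. Krt28 against liver was lost under quantile normalization and without any 1 of mice B, D and E. Krt10 against muscle was lost without mouse C and with its other probe, and Krt86 against muscle in WT arrays alone. In heart 0 of 15 (11.2% of all genes) and in muscle 0 of 13 (20.9% of all genes) were highest in this sense.

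Krt12, best known from the corneal epithelium, was detected in brain only. Its level in brain was 0.60, 0.57 and 0.89 in KI mice A, B and C and 0.72, 0.36 and 1.30 in WT mice D, E and F. It was above background on no array of liver, heart or muscle. Brain was at least 54.7-fold above liver, 67.3-fold above heart and 34.7-fold above muscle (adjusted p of the fits at most 1.15e-13). Krt12 entered these pairs through brain alone and the fits use values below background, so their p-values add no support to the bounds. The second Krt12 probe was above background on no array, in brain included.

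Krt9, a keratin of the palm and sole epidermis, was measured everywhere and ran from 0.65 to 1.63 in brain. Elsewhere it ran from -2.82 to -2.47 in muscle, -3.27 to -2.45 in liver and -3.31 to -3.00 in heart. The difference was -4.02 ± 0.15 for liver against brain, 4.40 ± 0.15 for brain against heart and 3.82 ± 0.15 for brain against muscle (adjusted p = 5.60e-15, 2.90e-15 and 1.54e-14), with no overlap. Krt1, the type II keratin of the upper epidermis, ran from -1.49 to -0.20 in brain and was elsewhere above background only in the muscle of mouse B (-4.10). Its level in brain was at least 19.4-fold above liver and 23.8-fold above heart. Krt25, an inner root sheath keratin, was at -1.49, -2.52 and -5.43 in KI brains A, B and C and at -2.82, -1.43 and -2.53 in WT brains, and on no other tissue's arrays. It was at least 5.03-fold above liver, 6.19-fold above heart and 3.19-fold above muscle. Krt25 was lowest in the brain of mouse C.

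The windows before the start sites of 3 of these genes, all on chromosome 11, are shown for the members with the largest brain excess that have an entry in the table (Krt1 has none). Capitals mark the same motifs.
Krt12, chr11:99422260-99422509, minus strand: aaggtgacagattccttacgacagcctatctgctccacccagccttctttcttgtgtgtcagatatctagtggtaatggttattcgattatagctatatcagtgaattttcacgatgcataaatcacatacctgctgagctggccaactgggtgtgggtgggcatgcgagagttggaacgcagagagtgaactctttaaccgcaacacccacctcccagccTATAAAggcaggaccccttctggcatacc
Krt9, chr11:100193247-100193496, minus strand: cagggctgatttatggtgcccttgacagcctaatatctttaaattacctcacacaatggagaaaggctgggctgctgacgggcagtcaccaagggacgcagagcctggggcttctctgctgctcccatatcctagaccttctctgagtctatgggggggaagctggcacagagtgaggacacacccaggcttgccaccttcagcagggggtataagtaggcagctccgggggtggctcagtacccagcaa
Krt25, chr11:99322952-99323201, minus strand: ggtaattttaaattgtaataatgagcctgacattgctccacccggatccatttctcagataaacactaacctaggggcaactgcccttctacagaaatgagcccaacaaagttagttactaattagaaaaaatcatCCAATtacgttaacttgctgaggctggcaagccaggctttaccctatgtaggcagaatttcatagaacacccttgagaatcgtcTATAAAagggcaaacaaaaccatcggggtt
Krt12 and Krt25 held TATAAA, starting 29 and 30 bases before the start site, and Krt25 also held CCAAT. Krt9 held none of the 3 motifs.

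**Figure D3:**
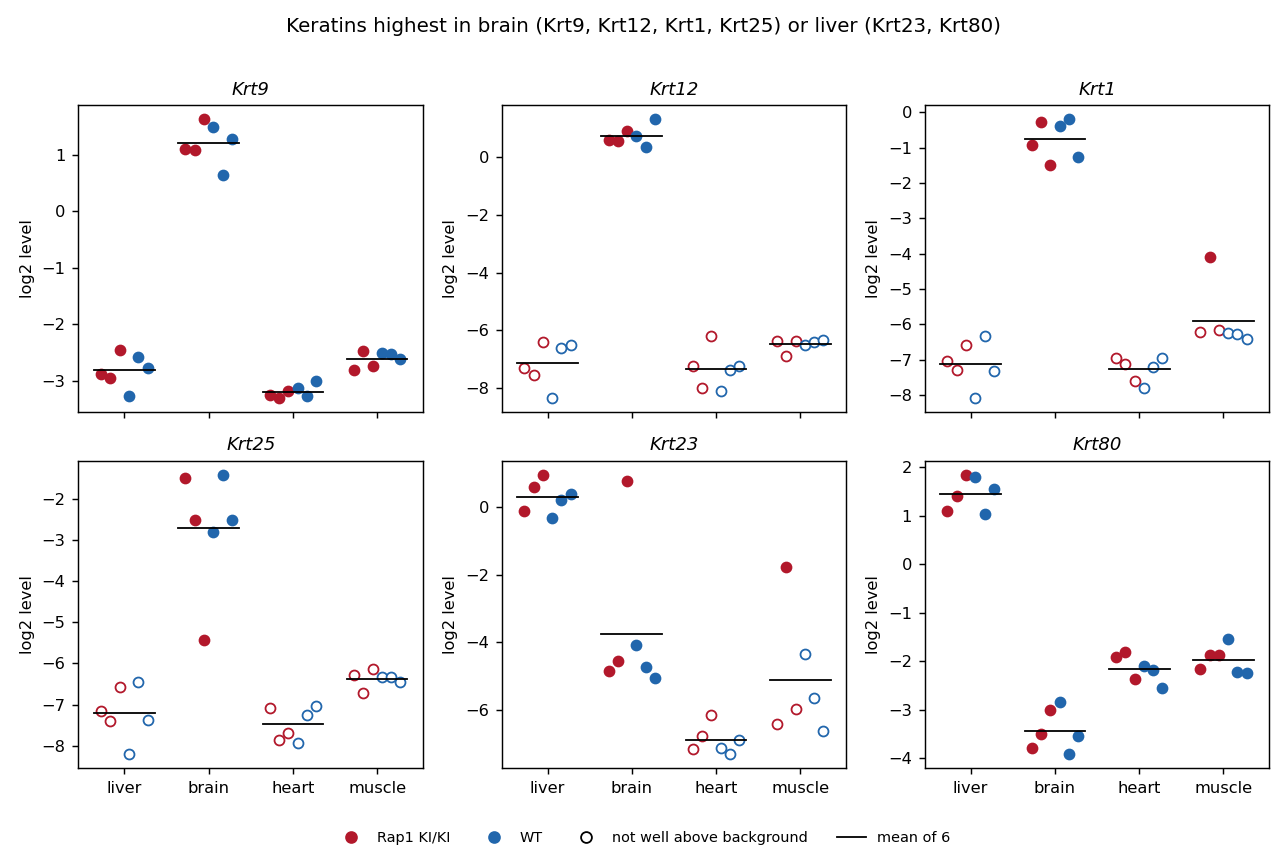
Level (log2 signal minus the 75th percentile) on each array by tissue of Krt9, Krt12, Krt1 and Krt25, highest in brain, and of Krt23 and Krt80, highest in liver, red for Rap1 KI/KI, blue for WT, open where not well above background, with a line at the mean of 6. Krt9 and Krt12 brains do not approach any other array, Krt25 has 1 low brain (mouse C, -5.43), and Krt23 has 1 brain (mouse C, 0.77) within the liver range.

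The other brain differences were small or rested on few arrays. Krt10, the type I partner of Krt1, was on all 24 arrays and was higher in brain by 0.75 ± 0.13 against liver, 0.43 ± 0.13 against heart and 0.44 ± 0.13 against muscle. Krt86, a hair shaft keratin, was higher in brain by 0.72 to 1.09. Krt28, an inner root sheath keratin, was higher by 0.98 to 2.10, and its second probe was above background on 2 brains only. Krt15, a basal keratin, ran from -5.19 to -0.67 in brain, and its next highest brain after mouse C was at -4.41. Krt17, a keratin of appendages and of injury, was on all 6 brains (-4.55 to -2.40) and at least 2.20-fold above liver and 2.71-fold above heart.

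The remaining members with full detection in a tissue differed little or unevenly. Krt5, the basal type II keratin, was on all 24 arrays, with medians of -3.30 in muscle, -3.41 in liver, -4.19 in brain and -4.28 in heart, and 1 pair passed: muscle above heart by 1.76 ± 0.74 (adjusted p = 0.0410), a call lost in fits that left out any 1 of mice B, D, E and F. The second Krt5 probe was above background on no array. Krt14, the basal type I partner of Krt5, was on 5 livers and on all arrays of the other tissues, with medians of -3.76, -4.60, -3.85 and -3.13 in liver, brain, heart and muscle. Krt14 was higher in muscle than in brain by 1.56 ± 0.47 (adjusted p = 0.00501), a call lost without mouse B. Krt2, an upper epidermal keratin, ran from -4.84 to -2.78 over all arrays and was lower in brain than in heart by 0.70 ± 0.26 and in muscle by 1.03 ± 0.26. With its other probe, which was above background on all 6 brains and 1 muscle, both of these turned to higher in brain. The difference of Krt2 from heart was also lost under both other normalizations, in WT arrays alone and without any 1 of mice A, E and F. Krt79 ran from -1.90 to 0.21 over all arrays and was higher in muscle than in liver by 0.54 ± 0.25 (adjusted p = 0.0493), a call lost in fits that left out any 1 of mice A, B, C and D. Krt42 was on all 6 hearts (-4.46 to -2.53), 5 livers, 4 brains and 3 muscles, and was higher in heart than in brain by 2.04 ± 0.52.

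Krt222, a keratin-like gene that differs from the rest of the family, was high on all 24 arrays. It ran from 4.85 to 5.72 in heart, 4.52 to 5.01 in brain and 3.89 to 5.12 in muscle. In liver it was lower, by 2.29 to 3.07 (log2), and spread widely, at 4.13, 1.10 and 0.94 in KI mice A, B and C and 1.33, 2.21 and 3.88 in WT mice D, E and F. The neuron marker Snap25 had the same order of livers, at 5.57, 2.43 and 2.22 in A, B and C and 2.75, 3.51 and 5.22 in D, E and F. Between 4 and 6 of 8 neuron markers were above background on a liver, with a summed level of 50.3 and 41.5 in A and F against 8.58 to 13.9 in the others. Snap25 made up most of the sums of A and F, so they do not speak for the other markers. Of the 8 markers, 1 was highest of the 6 livers in A and 2 in F (23.2% and 17.4% of all genes), against 0 to 2 in the other livers. The part of these markers in the result was not tested. The second probe of Krt222 was above background on all brains and hearts and on no liver or muscle.

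Pair by pair, the keratins tested split as follows. Liver was higher than brain in 11 of 25 and lower in 10 (45.6% and 39.8% of all genes). Liver was higher than heart in 10 of 20 and lower in 2 (38.3% and 41.8%). Liver was higher than muscle in 10 of 18 and lower in 3 (40.2% and 44.2%). A keratin enters a pair when all 6 arrays of either tissue detect it. Krt8, Krt13, Krt23 and Krt81, and also Krt7, entered the pairs of liver with heart and muscle through liver alone. A member so chosen tends to be higher there, so the split of the counts is no result about the members. Brain was higher than heart in 11 of 23 and lower in 4 (36.5% and 44.7%), and higher than muscle in 9 of 22 and lower in 4 (37.9% and 46.3%). Krt1, Krt12, Krt15, Krt17, Krt25 and Krt28 entered the pairs of brain through brain alone, so these splits are no result about the members either. Heart was higher than muscle in 0 of 15 and lower in 2, Krt5 and Krt9 (33.4% and 35.8%). Of the 76 calls, 74 remained without the brain of mouse C and the muscle of mouse B, and Krt10 between liver and muscle and Krt73 between brain and muscle did not. In the 12 WT arrays alone, 71 remained.

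The proteins that anchor or accompany keratin filaments were read from 3 lists. Desmosomes tie keratin filaments to cell junctions. Of 16 desmosome genes, liver was higher than muscle in 8 of 8 tested and lower in 0 (40.2% and 44.2% of all genes), higher than brain in 7 of 9 and lower in 1 (45.6% and 39.8%), and higher than heart in 3 of 10 and lower in 3 (38.3% and 41.8%). Heart was higher than muscle in 7 of 9 and lower in 0 (33.4% and 35.8%), and higher than brain in 7 of 10 and lower in 3 (44.7% and 36.5%). Brain was higher than muscle in 4 of 7 and lower in 2 (37.9% and 46.3%). The same filter applied to the 3 lists as to the keratins. Pkp1 and Dsp, both on 6 livers and 1 muscle, entered the pair of liver with muscle through liver alone. The splits in these lists are thus no result about their members. Dsp, the linker between desmosome and filament, ran from 5.48 to 6.09 in heart, 2.35 to 3.03 in liver and -3.87 to -1.85 in brain, and was above background in muscle only in mouse B (-2.38). Of 9 plakins and hemidesmosome genes, liver was higher than muscle in 3 of 8 and lower in 5, higher than brain in 3 of 9 and lower in 6, and higher than heart in 2 of 8 and lower in 5. Brain was higher than heart in 3 of 9 and lower in 6 and higher than muscle in 2 of 9 and lower in 5, and heart was higher than muscle in 4 of 8 and lower in 3. Of 16 other intermediate filament genes, liver was higher than heart in 2 of 13 and lower in 9, higher than muscle in 2 of 11 and lower in 9, and higher than brain in 4 of 16 and lower in 10. Brain was higher than heart in 7 of 16 and lower in 7 and higher than muscle in 7 of 16 and lower in 8, and heart was higher than muscle in 1 of 12 and lower in 6. Gfap, the astrocyte filament protein, ran from 1.49 to 3.40 in brain and was on no heart or muscle.

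Between genotypes, no keratin passed the threshold in any tissue, and neither did any other gene. In limma with adjustment over all genes tested, the counts were 0 of 15 keratins in muscle, 0 of 19 in heart, 0 of 21 in liver and 0 of 23 in brain, and the share over all genes was 0% for every tissue. At an unadjusted p under 0.05 3 keratins were found in liver (11.8% of all 14092 genes), 2 in heart (1.64% of 14931) and 0 each in brain (0.79% of 16073) and muscle (0.866% of 13517). With 3 arrays against 3, an exact permutation test of 1 gene cannot go below p = 0.10. Groups that did not overlap were 2 keratins above and 1 below in liver (12.9% and 6.88% of all genes), 1 above and 0 below in brain (1.21% and 1.73%), 3 above and 0 below in heart (1.8% and 3.23%), and 0 above and 1 below in muscle (2.23% and 1.39%). Krt82 and Krt75 in heart and Krt24 in liver passed the filter only through the genotype where they were high. They are in both counts of their tissue, so the counts in liver and heart are no result about the members.

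**Figure D4:**
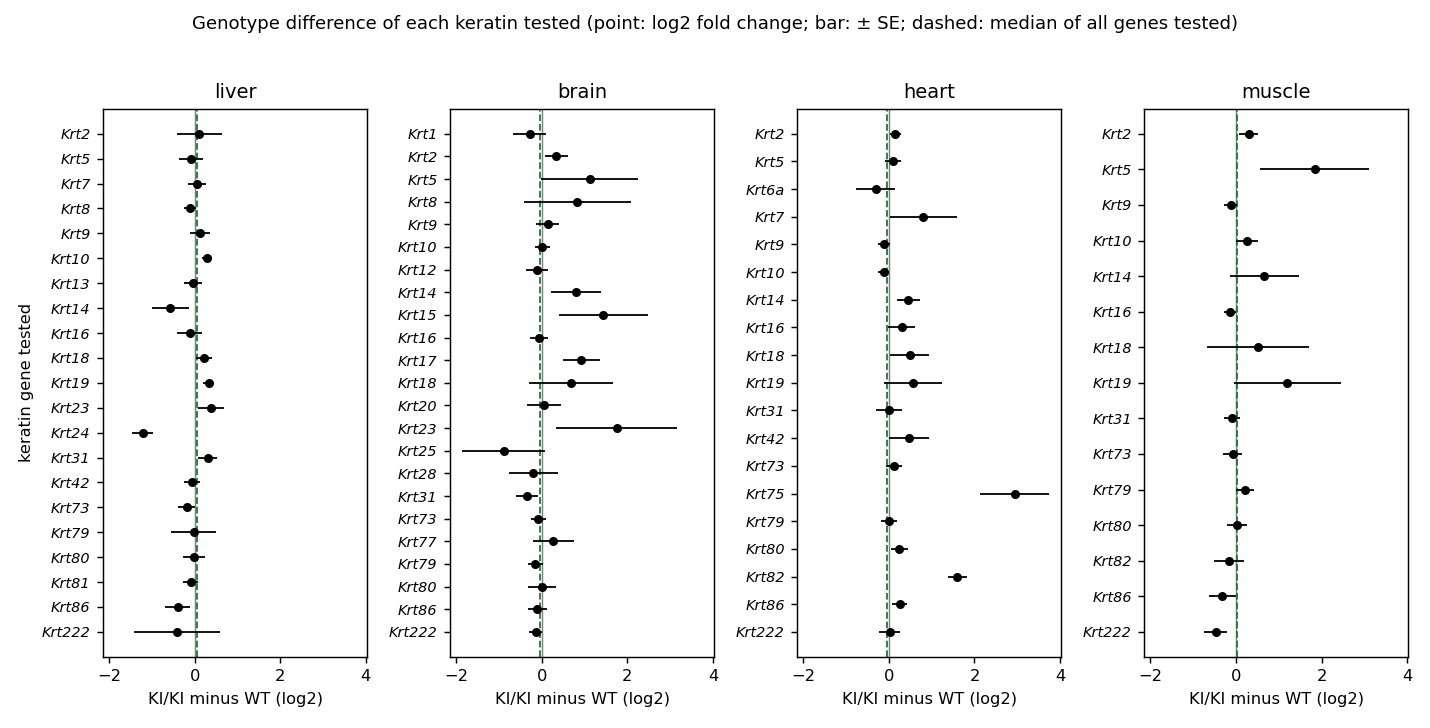
Difference between Rap1 KI/KI and WT (log2 fold change, bar ± SE) of each keratin tested in each tissue, with a dashed line at the median of all genes tested. Most points lie within 0.5 of 0, Krt75 (2.94) in heart lies farthest out, and the long bars of Krt5, Krt8, Krt15 and Krt18 in brain or muscle belong to genes with 1 KI mouse far above the rest.

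In liver, the smallest p-values belonged to Krt24, Krt10 and Krt19. Krt24, a suprabasal keratin, was at -5.28, -5.49 and -6.00 in the 3 KI mice, all below background, and at -4.75, -4.28 and -4.10 in the WT mice, all above it. It was at least 1.42-fold higher in WT (limma, adjusted p = 0.339). Krt10 was at -0.02, 0.15 and 0.05 in KI and -0.12, -0.29 and -0.28 in WT, a difference of 0.29 ± 0.12 (limma, adjusted p = 0.421). Krt19 was at -1.60, -1.61 and -1.57 in KI and -1.75, -2.12 and -1.89 in WT, a difference of 0.33 ± 0.13 (limma, adjusted p = 0.421). The groups did not overlap in these 3. Krt8 was at 4.27, 4.31 and 4.59 in KI and 4.43, 4.60 and 4.47 in WT, and Krt18 at 7.26, 6.70 and 6.86 in KI and 6.56, 6.99 and 6.61 in WT. Both overlapped, and the differences were -0.11 ± 0.14 and 0.22 ± 0.20.

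In heart, Krt82 and Krt75 were above background in the KI mice and in none of the WT mice. Krt82, a hair shaft keratin, was at -4.49, -4.74 and -3.99 in KI and -5.86, -5.90 and -6.25 in WT, at least 1.80-fold higher in KI (limma, adjusted p = 0.970). Krt75, a type II keratin of the hair follicle, was at -4.10, -4.39 and -2.99 in KI and -8.04, -7.35 and -4.90 in WT, at least 2.69-fold higher in KI (limma, adjusted p = 0.970). Both genes were near background on most other arrays: Krt82 was on 5 muscles of both genotypes and 1 WT liver, and Krt75 on 1 WT liver and 1 WT muscle. Krt14 came next, at -2.91, -3.36 and -3.99 in KI and -3.95, -3.80 and -3.89 in WT. Krt2, at -3.51, -3.25 and -3.54 in KI and -3.58, -3.57 and -3.61 in WT, also had no overlap. Over all 53 keratins with no filter, 32 had a higher mean in the KI hearts, with a median of 0.10 against -0.06 over all 21370 genes, of which 39.4% were higher in KI. Of the 19 tested, 16 were higher, with a median of 0.25 against -0.05 over all genes (38.1% higher), but Krt82, Krt75 and Krt7 were among them through the KI arrays alone. That median was 0.12 with normexp and 0.06 without mouse B, with 14 of 19 higher in both. Without mouse A it was 0.19, with 12 of 20 higher. Only 28 of the 53 were detected on at least 1 heart array, and the filtered count holds members chosen by the KI arrays. Neither count is thus a result about the members.

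In brain, Krt17, Krt15 and Krt14 had the smallest p-values, and the brain of mouse C was the highest of 6 in each. Krt17 was at -3.99, -3.90 and -2.40 in KI and -4.04, -4.55 and -4.49 in WT, without overlap (0.93 ± 0.43, limma, adjusted p = 1.00). Krt15 was at -4.81, -4.41 and -0.67 against -4.49, -5.19 and -4.52, and Krt14 at -4.39, -4.80 and -2.38 against -4.50, -4.70 and -4.79. In both, mouse C lay far above the other 5. Without mouse C the differences of Krt17, Krt15 and Krt14 were 0.41 ± 0.20, 0.12 ± 0.26 and 0.066 ± 0.19. Krt8 and Krt18 had means higher in KI by 0.83 ± 1.25 and 0.68 ± 0.97, which became -0.65 and -0.50 without mouse C.

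In muscle, Krt222, Krt5 and Krt2 had the smallest p-values. Krt222 was at 4.77, 3.89 and 4.30 in KI and 5.12, 4.63 and 4.62 in WT (-0.47 ± 0.27, limma, adjusted p = 1.00). Krt5 was at -2.90, 1.65 and -3.60 in KI and -3.76, -3.37 and -3.24 in WT, a difference of 1.84 ± 1.28 with mouse B far above the other 5, and of 0.20 ± 0.28 without mouse B. Without mouse B, Krt222 differed by -0.25 ± 0.25. Krt2 differed by 0.30 ± 0.22, and by 0.31 ± 0.25 without mouse B. Krt16, at -1.46, -1.28 and -1.28 in KI and -1.13, -1.23 and -1.22 in WT, was the 1 keratin without overlap. Krt18 was at -1.67, 3.34 and -0.43 in KI and -0.62, -0.08 and 0.40 in WT. Its difference of 0.51 ± 1.18 became -0.95 without mouse B. Of 15 keratins tested, 8 had a higher mean in KI (54.5% of all genes), and 4 did without mouse B. With no filter, 29 of 53 did (52.1% of all genes).

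In the mean of 4 tissues of each mouse, 0 of 31 keratins passed (0% of all 17177 genes), and 2 had an unadjusted p under 0.05 (3.47% of all genes). These were Krt17, higher in KI by 0.67 ± 0.25 (limma, adjusted p = 0.982), and Krt28, lower in KI by a log2 difference of -0.32 ± 0.13 (limma, adjusted p = 0.982), followed by Krt5 at 0.74 ± 0.32. Outside brain, Krt17 was detected on 1 muscle only and Krt28 on 4 livers, 3 hearts and 3 muscles. Their means over tissues thus hold values below background. Without the brain of mouse C and the muscle of mouse B, in a fit with mouse as a replicate block, Krt17 stood at 0.14 ± 0.24, Krt28 at -0.19 ± 0.25 and Krt5 at -0.03 ± 0.14, and 0 of 32 keratins had an unadjusted p under 0.05 (3.04% of all genes). When the genotype differences were compared across tissues, 0 of 32 keratins passed (0% of all 17299 genes) and 1 had an unadjusted p under 0.05 (1.91% of all genes), Krt75 (limma F-test, adjusted p = 1.00), ahead of Krt82 and Krt24. Krt75 passed the filter through the KI hearts alone and Krt24 through the WT livers alone. The 3 companion lists also had 0 genes past the threshold in each tissue.

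The brain of KI mouse C and the muscle of KI mouse B stood apart in their keratins. In brain C, 11 of 35 keratins detected in brain lay more than 2 above all other brains (3.56% of all genes did). In muscle B, 10 of 29 did (1.37% of all genes). On the other arrays the number was 0 or 1. A gene counted as detected in a tissue when 1 of its arrays detected it. Krt1, Krt8, Krt13, Krt15, Krt17 and Krt23 thus counted in muscle through muscle B alone, and Krt4, Krt6a and Krt6b in brain through brain C alone. These entered through the array where they were high, so the counts are no result about them.

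**Figure D5:**
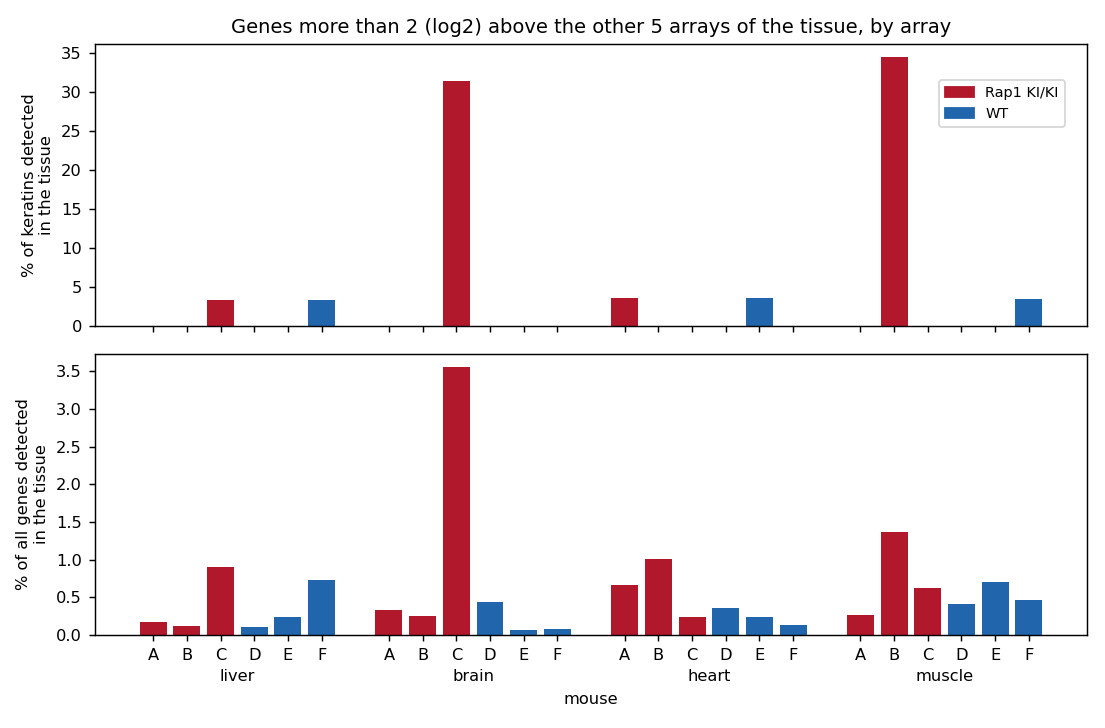
Share of the keratins (top) and of all genes (bottom) detected in a tissue that lay more than 2 (log2) above the other 5 arrays of that tissue, 1 bar for each array, red for Rap1 KI/KI and blue for WT. The 2 tall keratin bars are brain C (11 of 35) and muscle B (10 of 29), the scales of the panels differ, and 1 array of a tissue was enough for detection.

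The 2 sets shared 8 genes, 8 of 11 in brain C and 8 of 10 in muscle B: the simple keratins Krt8, Krt18, Krt19 and Krt23, the basal keratins Krt5, Krt14 and Krt15, and the mucosal keratin Krt13. In muscle B the largest gap was that of Krt5, at 1.65 against at most -2.90. Krt17 was at -0.63 against at most -4.73, Krt15 at -2.28 against at most -5.81, Krt19 at 1.48 against at most -1.86 and Krt8 at -1.38 against at most -4.37. Krt1 and Krt17 were above the line in muscle B and not in brain C. Krt1, Krt7, Krt8, Krt13, Krt15, Krt17, Krt23 and Krt78 were above background in muscle B and in no other muscle.

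In brain C the largest gap was that of Krt6b, a type II keratin of injured and appendage epithelium, at -1.08 against at most -6.37. Krt23 was at 0.77 against at most -4.07, Krt15 at -0.67 against at most -4.41, Krt6a at -4.13 against at most -7.74 and Krt5 at -0.14 against at most -3.69. Krt4, Krt6a and Krt6b were above the line in brain C and not in muscle B. The inner root sheath keratins Krt25 and Krt28 were lowest of the 6 brains there, at -5.43 and -4.65.

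Markers of other tissues moved with these keratins. In muscle B, 10 of 12 mammary epithelium markers were above background and 10 were the highest of the 6 muscles (29.0% of all genes detected in muscle were), with a summed level of 64.5 against 28.3 to 44.8. The same list summed to 374.4 to 762.8 on the livers, so its sum does not single out mammary epithelium, here or in brain C. Wfdc18 was at 2.30 against at most -6.13, the casein Csn1s1 at 0.78 against at most -4.72 and Elf5 at -0.15 against at most -5.81, while the milk protein Wap and the casein Csn3 were below background on all 6. Of 8 cholangiocyte markers, which include general epithelial genes, 6 were above background, 5 were highest and 3 lay more than 2 above the other muscles, with a summed level of 3.76 against 0.94 to 2.20. Of 11 epidermis markers on the array, 7 were above background in muscle B and 2 to 4 in the other muscles. In muscle B, 7 of the 11 were highest and 3 lay more than 2 above the other muscles. Their summed level was 15.3 against 14.1 to 15.3, and Lor, a protein of the cornified layer, was at 1.36 against at most -3.96. In brain C, olfactory mucosa markers had a summed level of 177.4 against 35.1 to 47.9, with Bpifb4 at 6.07 against at most -2.82 and Omp at 5.64 against at most 2.26. Hepatocyte markers had a summed level of 378.0 there against 42.6 to 124.7, and Alb was at 6.54 against at most -0.82. Mammary epithelium markers had 8 of 12 above background in brain C and 5 to 8 in the other brains. Of these markers, 7 of 12 were highest there (19.5% of all genes detected in brain were) and 2 lay more than 2 above the rest, with a summed level of 119.0 against 74.4 to 103.3. Lists of the brain's own epithelia were also high in brain C. Ependymal markers were highest there in 6 of 8, with a summed level of 8.77 against 4.50 to 6.19. Choroid plexus markers were highest in 5 of 8, with 151.5 against 47.4 to 143.4. In both lists 0 lay more than 2 above the rest. The part of these lists in the keratin levels was not tested.

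Keratins detected on some arrays only were Krt20 on 10 arrays, Krt6b on 8, Krt36 on 7, Krt6a on 6, Krt77, Krt75 and Krt90 on 5 each, Krt24 and Krt88 on 3 each, Krt4, Krt71, Krt72, Krt74 and Krt78 on 2 each, and Krt27 on 1. Krt82 was on 9. Krt77, an upper epidermal keratin, was on 5 brains and nowhere else, and Krt88 and Krt24 on 3 livers each and nowhere else. Krt6a was on 5 hearts, at -4.62 to -4.16, and on the brain of mouse C.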

How the data were processed

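RNA from 4 tissues of 3 Rap1 KI/KI and 3 WT mice was hybridised to 24 1-colour Agilent arrays (Cy3, 8 to a slide). RNA came from RNeasy Mini columns for brain and liver and from the fibrous tissue kit for heart and muscle, so kit and tissue cannot be told apart for those pairs. Liver lay on 1 slide, muscle on another, and brain and heart on 2 each. Per the file headers, the deposited intensity was read with Feature Extraction 12.0.3.1 (processed signal, background-subtracted and detrended, and the median spot and background intensity). The authors also deposited a table of 33912 rows whose score values were found to be z-scores within each array, equal to the scanner values within 0.005.

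Control spots and 121 to 347 outlier spots an array were left out, spots of 1 probe were averaged, and log2 of the processed signal was taken minus the array's 75th percentile. Probes were named through RefSeq tables: 50.9% of 55681 probes and 99.0% of the 26732 with a curated mRNA accession. No probe was saturated, and the number of arrays limits the precision. The missing Krt15 value of the WT liver F left 5 livers in its fits and no mean of 4 tissues.

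Genotypes were compared within each tissue, in the mean of 4 tissues and for a difference between tissues, and tissues in pairs, with limma 3.58.1 (R 4.3.3), two-sided, and Benjamini-Hochberg adjustment over all genes tested, at 0.05. A genotype test took genes well above background on all 3 arrays of a genotype, and a tissue test those on all 6 arrays of a tissue. Where no array of a group was well above background, the fold is a lower bound: the group's values were lifted to the dimmest detected level of each array. Named with values were keratins on all 6 arrays of a tissue, Krt8, Krt18, Krt82 in heart, and the 3 keratins of smallest p in each genotype comparison. The members, classes and marker lists were chosen with earlier results of these data known. Genotypes share no mouse, so nothing pairs the arrays within a tissue. Tissues of 1 mouse are tied by its animal number, and arrays of 1 mouse had a consensus correlation of -0.00071 in limma. Alternatives were other normalizations, the deposited table, no filter on dim probes, the other probe of a gene, array weights, slide or mouse as a block, WT arrays alone and leaving out each mouse. Leaving out the brain of mouse C and the muscle of mouse B was chosen after seeing the data. The code was tested on simulated data.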

Additional observations from a re-analysis of the deposited data

Results flagged for a closer look

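Within each tissue, the 6 arrays of a keratin were searched for 1 array far from the other 5, by the gap to its nearest neighbour as a share of the whole range (Dixon's ratio, at least 0.625 for 6 arrays). Of 122 pairs of a keratin and a tissue, 32 had such an array (26.2%). Chance gives about 1 in 20, and over all genes detected in a tissue the share was 10.4%, from 6.92% in liver to 13.3% in heart. By tissue, the keratins had 4 of 30 in liver, 12 of 35 in brain (9.95% of all genes), 6 of 28 in heart and 10 of 29 in muscle (11.3% of all genes). Both genotypes were pooled here, since groups of 3 are too small for the ratio. A pair counted when 1 array of the tissue detected the keratin, so some pairs counted only through the array that lay apart. Examples are Krt1, Krt13, Krt15 and Krt17 in muscle B and Krt6a and Krt6b in brain C. The share of keratins is therefore no result about the members.

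The brain of KI mouse C accounted for 11 of them. Its ratios as the highest brain were Krt6b 0.871, Krt14 0.832, Krt23 0.83, Krt15 0.828, Krt6a 0.816, Krt5 0.788, Krt19 0.73, Krt17 0.698, Krt13 0.663 and Krt18 0.655, and as the lowest brain Krt25 0.654. The muscle of KI mouse B accounted for 8, as the highest muscle: Krt1 0.891, Krt5 0.842, Krt15 0.81, Krt14 0.791, Krt13 0.79, Krt17 0.716, Krt19 0.679 and Krt10 0.631. The marker lists that moved with these 2 arrays are given with the results above, and their part was not tested.

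The other 13 were spread over 10 arrays. In liver the ratio was 0.821 for Krt74 (KI mouse C, highest), 0.749 for Krt75 (WT mouse F, highest), 0.72 for Krt73 (KI mouse A, lowest) and 0.638 for Krt81 (WT mouse E, highest). In heart it was 0.767 for Krt90 and 0.634 for Krt16 (KI mouse A, highest), 0.725 for Krt2 and 0.696 for Krt18 (KI mouse B, highest), 0.739 for Krt6a (KI mouse B, lowest) and 0.68 for Krt13 (WT mouse E, highest). In muscle it was 0.923 for Krt79 (KI mouse A, highest) and 0.625 for Krt75 (WT mouse F, highest), and in brain 0.629 for Krt31 (WT mouse D, highest).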

How the results depend on the processing

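No keratin passed the threshold between genotypes under any alternative run. Of the 76 keratin calls between tissues, 73 remained under quantile normalization, 72 with normexp and quantile normalization, 72 in the deposited table, 74 without a filter, 72 with array weights, 67 to 72 without 1 mouse and 71 in WT arrays alone. With the lowest-mean probe of a gene 60 remained, 13 were not tested, and Krt2 turned in brain against heart and against muscle. With mouse as a replicate block 75 remained (Krt79 between liver and muscle was lost), the counts between genotypes stayed at 0, and Krt17 in the mean of 4 tissues was 0.67. Slide as a block left 0 keratins in brain and heart. Quantile normalization moved the median of all genes from 0.15 to -0.10 between liver and brain and from -0.20 to 0.08 between brain and muscle.

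Counts that moved were those of few keratins. Heart above muscle, 0 in the report, became 1 under quantile normalization, normexp, the lowest-mean probe and array weights, 2 in WT arrays and 3 without brain C and muscle B. Muscle above heart, 2, became 1 in the deposited table, with the lowest-mean probe and with array weights, and 4 in WT arrays. Muscle above liver, 3, became 1 with normexp and with the lowest-mean probe, where heart above liver, 2, also became 1. Without a filter, liver above brain became 28, muscle above liver 16, heart above brain 19, muscle above brain 28 and muscle above heart 25. These fits also test keratins at background, whose level differs between tissues. Krt76, detected on no array, averaged -6.47 in muscle, -6.99 in liver, -7.51 in heart and -8.00 in brain. The unfiltered counts are therefore no result about the members. Without 1 mouse, heart above muscle was 0 to 2, muscle above heart 1 to 5, muscle above liver 1 to 4 and heart above liver 1 to 3.

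Apart from Krt2, the differences that changed sign had not passed the threshold. Krt8 between brain and heart became 0.26 under quantile normalization, 0.17 with normexp and 0.015 (z-score units) in the deposited table. Krt18 between brain and muscle became 0.031, 0.042 (z-score units) in the deposited table and 0.10 without brain C and muscle B, and Krt18 between genotypes in muscle became -0.17 with array weights. Without 1 array, the difference between genotypes ran from -0.65 to 1.79 for Krt8 and from -0.50 to 1.36 for Krt18 in brain, and for Krt18 from -0.048 to 0.87 in heart and from -0.95 to 1.55 in muscle. Without 1 mouse, Krt8 ran from -1.15 to 0.55 between brain and heart and from -0.46 to 1.61 between brain and muscle. Krt18 ran from -0.98 to 0.32 between brain and heart, -0.84 to 0.94 between brain and muscle and -0.28 to 0.62 between heart and muscle. Without brain C and muscle B, Krt18 came to -0.79 between brain and heart and 0.89 between heart and muscle, both past the threshold. That sets no order, since the arrays left out were the highest of their tissues in Krt18 and the highest heart was kept. In the mean of 4 tissues, with mouse as a replicate block, Krt5 came to -0.028 without brain C and muscle B. The cause of these changes was not tested. Signal near background limits what can be said of the 16 keratins that no tissue showed on all 6 arrays.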
